A study of Mus musculus with 2 samples.

Results

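The 10 genes described here are markers of tissue-resident macrophages together with the chains of complement C1q: C1qa, C1qb, C1qc, Mrc1, Cd163, Trem2, Lyz1, Lyz2, Cd68 and F13a1. They were chosen by gene symbol from a table of 23930 targets, and all 10 had a row. The table holds 2 bulk RNA libraries of cranial suture tissue (coronal, sagittal and lambdoid) from wildtype mouse pups at postnatal day 3, called library 1 and library 2 after the number in their titles. Both libraries belong to 1 group and 1 batch, so the series allows a description of levels and a comparison of the libraries, but no comparison of conditions. Although suture stem cells are given as the cell type, the protocol describes RNA from dissected suture tissue with no sort. The labels do not say if each library stands for other pups than its partner, so the spread between them may be technical. Levels are the authors' CPM values (reads of a gene scaled to a fixed library total) from a panel that amplifies a short stretch of each gene. Each amplicon has its own efficiency, so values of different genes order their reads and not their transcripts. In bulk tissue, more cells of a type and more RNA per cell cannot be told apart.

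Tissue macrophages take up dead cells, debris and blood-derived proteins, and in bone they share a myeloid origin with the osteoclasts. C1q is the recognition part of the classical complement pathway. It is built from an A, a B and a C chain, each from its own gene, joined by collagen-like stems. Macrophages are a main source of C1q in most tissues. It is bound by the proteases C1r and C1s, which cleave C4 and C2 and so lead to the cleavage of C3.

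The position of the members in the genome bears on how far their reads can be told apart. In the GENCODE M21 annotation of GRCm38, the assembly also called mm10, the C1q genes lie side by side on chromosome 4 on the minus strand. C1qb runs from 136880129 to 136886187, C1qc from 136889804 to 136893065 and C1qa from 136895917 to 136898803, and each main transcript has 3 exons. C1qc and C1qb are 3616 bases apart, and C1qa and C1qc 2851 bases. Their coding sequences differ enough to be separated, with 61.5% to 63.3% identical bases in pairwise alignment and no shared run of more than 15 bases. Lyz2 (chromosome 10, 117277331 to 117282321) and Lyz1 (117287797 to 117292868) are also neighbours on the minus strand, 5475 bases apart. They are near-identical copies. Their coding sequences of 444 bases have 422 identical bases and 22 differences, and share a run of 118 bases. Where in the genes the amplicons lie was not known here, so the split of reads between Lyz1 and Lyz2 is uncertain. The coding stretch from base 43 to base 132, which holds 13 of the 22 differences, the most in any stretch of that length, is shown from the GENCODE M21 transcripts with the differing bases in capitals:
Lyz1: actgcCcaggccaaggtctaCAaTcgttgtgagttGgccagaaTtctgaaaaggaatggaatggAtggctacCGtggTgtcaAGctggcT
Lyz2: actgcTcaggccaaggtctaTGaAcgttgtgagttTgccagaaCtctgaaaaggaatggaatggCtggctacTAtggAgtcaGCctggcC

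The sequences before the start sites were compared because neighbouring genes gave very different read numbers. RefSeq start sites (GRCm38.p6) were matched for 9 of the 10 members, all but C1qa, with 10 entries, since F13a1 has 2. The window of C1qa could therefore not be compared. The PU-box, GAGGAA or TTCCTC on either strand, is a core motif of the myeloid factor PU.1. It occurred within 250 bases upstream of 6 of the 10 entries, those of C1qb, C1qc, Mrc1, Trem2, Cd68 and 1 of F13a1. Of 32851 promoter entries of the same length, 23.3% held it. The letters TATAAA, searched on both strands, occurred in none of the 10 entries and in 12.4% of all entries. The entries of Cd163, Lyz1 and Lyz2 and the other entry of F13a1 held no PU-box. A match is a run of letters and not a shown binding site, and a relation of the motif to read numbers was not tested. RefSeq and GENCODE M21 do not place every start alike. The RefSeq start of C1qc lies inside the gene as GENCODE M21 places it, which begins at 136893065 on the minus strand. Part of its window is therefore within that gene. The windows upstream of the RefSeq starts of C1qb (chr4:136886201-136886450, minus strand) and C1qc (chr4:136892915-136893164, minus strand) are shown with the PU-box in capitals. The PU-box begins 30 bases before the RefSeq start of C1qb and 193 bases before that of C1qc:
C1qb: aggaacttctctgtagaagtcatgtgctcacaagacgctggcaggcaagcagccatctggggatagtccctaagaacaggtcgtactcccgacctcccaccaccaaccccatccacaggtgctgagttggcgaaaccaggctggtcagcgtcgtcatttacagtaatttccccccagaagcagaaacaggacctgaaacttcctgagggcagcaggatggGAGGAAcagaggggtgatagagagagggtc
C1qc: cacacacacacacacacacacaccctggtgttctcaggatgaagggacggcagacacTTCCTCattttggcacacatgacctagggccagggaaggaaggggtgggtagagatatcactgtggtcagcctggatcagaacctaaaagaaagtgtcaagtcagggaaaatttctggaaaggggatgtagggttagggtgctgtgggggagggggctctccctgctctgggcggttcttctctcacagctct

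The lysozyme genes resemble each other before their starts as well, with 200 identical bases among 248 aligned of the 250 upstream bases (80.6%). The RefSeq start of Lyz2 lies inside the gene as GENCODE M21 places it, which begins at 117282321 on the minus strand. Part of its window is therefore within that gene. The last 120 bases before the RefSeq starts of Lyz1 (chr10:117292869-117292988, minus strand) and Lyz2 (chr10:117282273-117282392, minus strand) differ at 9 bases, given in capitals:
Lyz1: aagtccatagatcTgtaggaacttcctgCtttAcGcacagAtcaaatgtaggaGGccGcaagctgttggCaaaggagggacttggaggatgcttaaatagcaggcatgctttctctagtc
Lyz2: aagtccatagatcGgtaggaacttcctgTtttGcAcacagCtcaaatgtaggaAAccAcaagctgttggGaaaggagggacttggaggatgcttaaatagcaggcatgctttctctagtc

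Library 1 held 5663344 reads and library 2 held 15802610, recovered from the steps of the CPM values. The members took 3392 reads (0.0599% of the library) in library 1 and 6276 (0.0397%) in library 2. Of the 10 members, 7 reached 1 CPM in both libraries, a level used here as detection, and 55.0% of all targets did so. C1qa, C1qc and Lyz1 did not. Of 8 osteoblast markers 8 and of 6 chondrocyte markers 6 reached this level, so transcripts of skeletal tissue were present. The titles name suture tissue and not cartilage, and the source of the chondrocyte reads was not tested. The presence of macrophages was checked with 27 other macrophage genes, of which 21 reached 1 CPM in both libraries. Stab1, a scavenger receptor, Gas6, a ligand of the phagocytic receptor Mertk, and the growth factor receptor Csf1r were the highest of these at 163, 136 and 80.9 CPM. Stab1 and Gas6 are not specific to macrophages. Spi1, the gene of PU.1, stood at 66.8 CPM ± 3.87 (SD, n = 2).

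**Figure D1:**
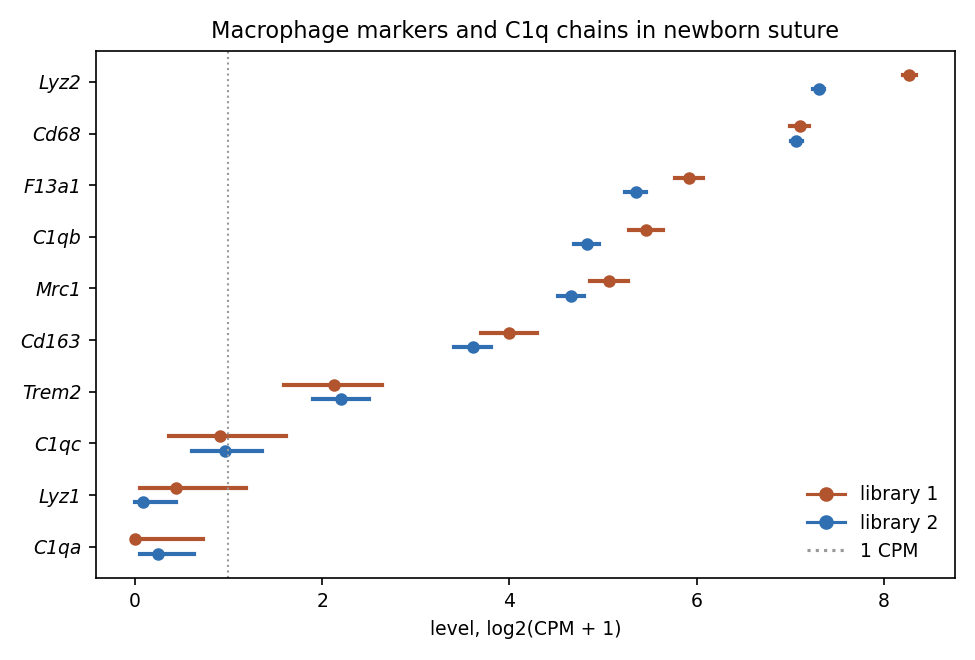
Level of each member in library 1 and library 2 on the log2(CPM + 1) scale, with exact 95% Poisson intervals of the reads as bars and 1 CPM as a dotted line. Lyz2 and Cd68 lie at the top, and C1qc, Lyz1 and C1qa at or below the dotted line in both libraries.

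The C1q chains gave very unequal read numbers. C1qb, the B chain, stood at 43.1 CPM in library 1 (244 reads) and 27.3 CPM in library 2 (432 reads). C1qc, the C chain, stood at 0.883 CPM (5 reads) and 0.949 CPM (15 reads). C1qa, the A chain, was read 0 times in library 1, where 3 reads are worth 0.530 CPM and the exact 95% interval reaches 0.651 CPM, and 3 times in library 2, at 0.190 CPM. C1qb was thus high in both libraries while the other chains were near the limit of detection in both. C1qb made up 98.0% of the 249 C1q reads of library 1 (exact 95% interval 95.4% to 99.3%) and 96.0% of the 450 C1q reads of library 2 (93.8% to 97.6%). Per read of C1qc there were 48.8 reads of C1qb in library 1 (exact interval 20.6 to 152) and 28.8 in library 2 (17.3 to 51.9). Between the libraries this proportion differed 1.69-fold with an interval of 0.576 to 6.03, so a difference was not detectable at this depth. Intervals cover counting error only and leave out other variation between libraries. The reads carry no molecular identifiers, so copies of 1 molecule cannot be told from separate molecules. No C1q chain was at 0 in both libraries. Fth1, the heavy chain of the iron store ferritin and a gene of general use, was read 0 times in both. Whether the transcripts of the C1q chains were as unequal as these reads was not tested.

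Mrc1 and Cd163 are surface receptors of resident and perivascular macrophages. Mrc1, the mannose receptor, takes up glycoproteins and collagen fragments, and is also made by lymphatic and sinusoidal endothelium. Mrc1 stood at 32.5 CPM in library 1 and at 24.3 CPM in library 2. Cd163, which takes up haemoglobin bound to haptoglobin, stood at 15.0 and 11.2 CPM. Their values did not overlap between the genes in either library. There were 0.462 Cd163 reads per Mrc1 read in library 1 and 0.461 in library 2 (ratio of the proportions 1.00, interval 0.723 to 1.38). Lymphatic and sinusoidal endothelial markers were present too, with 6 of 6 measured genes at 1 CPM or more in both libraries. Their levels summed to 171 CPM in library 1 against 195 CPM in library 2, and 3 of them were called higher in library 2 and 1 in library 1. Most of these sums came from Pdpn and Reln, at means of 76.9 and 52.3 CPM. Whether other cells gave part of these sums was not tested. The part of such endothelium in the Mrc1 reads was not tested either.

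Trem2, a lipid-sensing receptor of macrophages, osteoclasts and microglia, was low in both libraries, at 3.36 CPM (19 reads) in library 1 and 3.61 CPM (57 reads) in library 2. Tyrobp, the adaptor through which it signals, stood at 74.3 and 51.2 CPM. Tyrobp serves many other myeloid receptors as well. Reads of Trem2 per read of Tyrobp were 0.0451 and 0.0705, and the interval of their ratio (0.355 to 1.11) held 1.

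The lysosomal and secreted products gave the most reads. Cd68, a lysosomal membrane glycoprotein of macrophages and osteoclasts, stood at 136 CPM in library 1 and 133 CPM in library 2, with 772 and 2101 reads. The values of Cd68 were the closest to each other of all members with more than 100 reads in each library. Lyz2, the lysozyme of macrophages, monocytes and neutrophils, stood at 308 and 157 CPM (1744 and 2477 reads). Lyz1, known from Paneth cells of the intestine, was read 2 times in library 1 and 1 time in library 2. F13a1, the catalytic chain of the clotting factor XIII, found in macrophages, monocytes and platelets, stood at 59.5 and 39.8 CPM. Lyz2 was the member with the highest reads in both libraries, and Lyz1 stayed at or below the 3 reads that serve as its limit in both.

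In order of mean level the members were Lyz2 at 232 CPM ± 107, Cd68 at 135 ± 2.38, F13a1 at 49.7 ± 13.9, C1qb at 35.2 ± 11.1, Mrc1 at 28.4 ± 5.79, Cd163 at 13.1 ± 2.69, Trem2 at 3.48 ± 0.178, C1qc at 0.916 ± 0.0467, Lyz1 at 0.208 ± 0.205 and C1qa at 0.0950 ± 0.134 (SD, n = 2 for each). Across the libraries the values of F13a1 and C1qb overlapped, as did those of C1qb and Mrc1, and of Lyz1 and C1qa. The other neighbours in this order did not overlap. Within each library F13a1 lay above C1qb and C1qb above Mrc1, while Lyz1 and C1qa changed places on few reads. Among all targets, Lyz2 ranked 506 by mean level, Cd68 1117 and F13a1 3521, and C1qa 18305.

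The libraries were then compared gene by gene, which compares 2 libraries and not conditions. An exact two-sided binomial test of the reads, adjusted by Benjamini and Hochberg over all 23930 targets at 0.05, called 4 of 10 members higher in library 1 and none higher in library 2. At an unadjusted p under 0.05 none was higher in library 2 either, and Cd163 joined those higher in library 1. The test called 17.1% of all targets higher in library 1 and 20.0% higher in library 2. Among targets at a mean of 10 CPM or more, where 6 of the members lie, these shares were 32.5% and 37.0%. A call was therefore common for a gene of this level. The calls fell on 4 of these 6 members, too few to set them apart from other genes of that level. The test allows for counting error only, so its p-values leave out other variation between libraries. Over all 10 members the median difference, library 1 minus library 2 on the log2(CPM + 1) scale, was 0.37, beside 0.00 over all targets.

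Lyz2 differed most among the 8 members with more than 3 reads in both libraries, at 1.96-fold (interval 1.85 to 2.09, adjusted p = 5.34e-96, exact binomial test). C1qb was 1.58-fold higher in library 1 (interval 1.34 to 1.85, adjusted p = 2.08e-07, exact binomial test). F13a1 was 1.49-fold higher (1.31 to 1.71, adjusted p = 3.86e-08, exact binomial test) and Mrc1 1.34-fold (1.12 to 1.60, adjusted p = 0.00485, exact binomial test). Cd163 had the same fold of 1.34 from fewer reads and was not called (1.02 to 1.75, adjusted p = 0.0761, exact binomial test). It was called, at adjusted p = 0.0477 in the exact test, where only targets at a mean of 1 CPM or more entered the adjustment. Cd68 had a fold of 1.03 with an interval of 0.943 to 1.11. Trem2 and C1qc each had a fold of 0.930, with intervals of 0.522 to 1.59 and 0.264 to 2.69 that leave room for differences as large as those called. For C1qa and Lyz1, both libraries lay at or under 3 reads, and no fold is given.

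**Figure D2:**
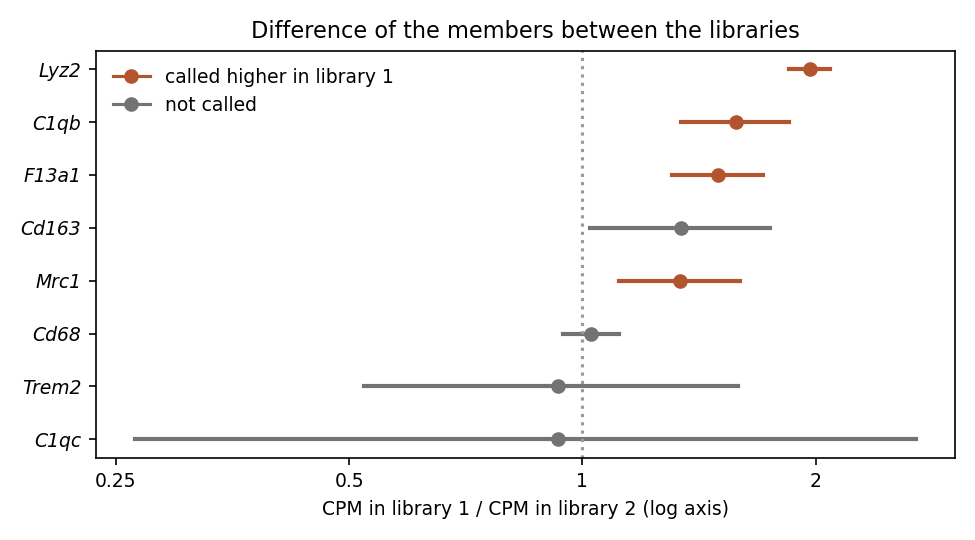
CPM in library 1 divided by CPM in library 2 on a log axis for the 8 members with enough reads, with exact 95% intervals as bars, coloured by the call of the exact binomial test over all targets. Lyz2, C1qb, F13a1 and Mrc1 are called higher in library 1, and the interval of Cd68 is the narrowest of those not called.

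The other members were set against Cd68 within each library. An amplicon's efficiency, if equal in both libraries, cancels when these proportions are compared. For each read of Cd68, Lyz2 gave 2.26 reads in library 1 and 1.18 in library 2. C1qb gave 0.316 and 0.206, F13a1 0.437 and 0.299, and Mrc1 0.238 and 0.183. The ratio of the proportions was 1.92 for Lyz2 (interval 1.73 to 2.13), 1.54 for C1qb (1.28 to 1.84), 1.46 for F13a1 (1.24 to 1.71) and 1.30 for Mrc1 (1.07 to 1.59). None of these intervals held 1, so beyond counting error these markers did not keep their proportion to Cd68. Cd68 itself had a fold of 1.03, so these ratios largely repeat the folds given above. For Cd163 (1.31, interval 0.984 to 1.73), Trem2 (0.907, 0.506 to 1.56) and C1qc (0.907, 0.257 to 2.64) the interval held 1. The intervals of C1qb, F13a1, Mrc1 and Cd163 overlapped one another. That of Lyz2 lay above those of F13a1 and Mrc1.

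Several members are shared with other myeloid cells, whose markers were therefore measured beside them. Neutrophil markers, which mark another cell type rich in Lyz2, summed to 1174 CPM in library 1 against 621 CPM in library 2, and none of the 12 was at 0 in both. Of these 12 genes, 8 were called higher in library 1 and 1, Ltf, higher in library 2, with a median difference of 1.11. The highest were Ngp, a granule protein, at 433 and 122 CPM, Ltf, lactoferrin, at 99.4 and 235 CPM, and the calcium-binding protein S100a9 at 213 and 101 CPM. Lyz2 gave 1.44 reads per read of S100a9 in library 1 and 1.55 in library 2 (ratio 0.933, interval 0.846 to 1.03), a pair chosen after the values were seen. Other neutrophil genes moved by other amounts, from 0.423-fold for Ltf to 5.58-fold for Mpo, the myeloperoxidase. The part of neutrophils in the Lyz2 reads was not tested.

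Monocyte markers, which can carry F13a1 and Lyz2, were divided. Of 7 measured, 3 were called higher in library 1, among them the chemokine receptor Ccr2 at 7.77 and 4.30 CPM and Plac8 at 33.5 and 20.6 CPM. The 2 with the highest mean levels of the list were called higher in library 2. Taken over all 7 measured monocyte markers, the sum was nearly equal, at 121 CPM (library 1) and 119 CPM (library 2). Megakaryocyte and platelet markers, the other possible source of F13a1, summed to 169 CPM in library 1 against 89.4 CPM in library 2. The platelet chemokine Pf4, which macrophages can also express, was the highest of them at 114 and 51.1 CPM. Of these 8 genes 3 were called higher in library 1, none higher in library 2, and none was at 0 in both. Their part in the F13a1 reads was not tested.

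Osteoclast markers, which bear on Cd68 and Trem2, were all detected (11 of 11), with 2 called higher in library 1, 3 higher in library 2 and a median difference of 0.05. Mmp9, a matrix protease, Acp5, the tartrate-resistant phosphatase, and Nfatc1, the master factor of osteoclast formation, were the highest. Their mean levels were 1569, 961 and 253 CPM. Acp5 was 2.09-fold higher in library 1, whereas Ctsk, the bone-resorbing cathepsin, stood at 34.1 and 32.0 CPM. Microglial markers were mixed. Olfml3 and Tmem119, at means of 436 and 240 CPM, are also made by mesenchymal and bone cells. P2ry12 and Sall1, which define microglia more closely, stood at 1.71 and 1.48 CPM, and Siglech at 1.06 and 0.0630 CPM. Fcrls, another microglial gene, stood at 11.2 CPM.

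**Figure D3:**
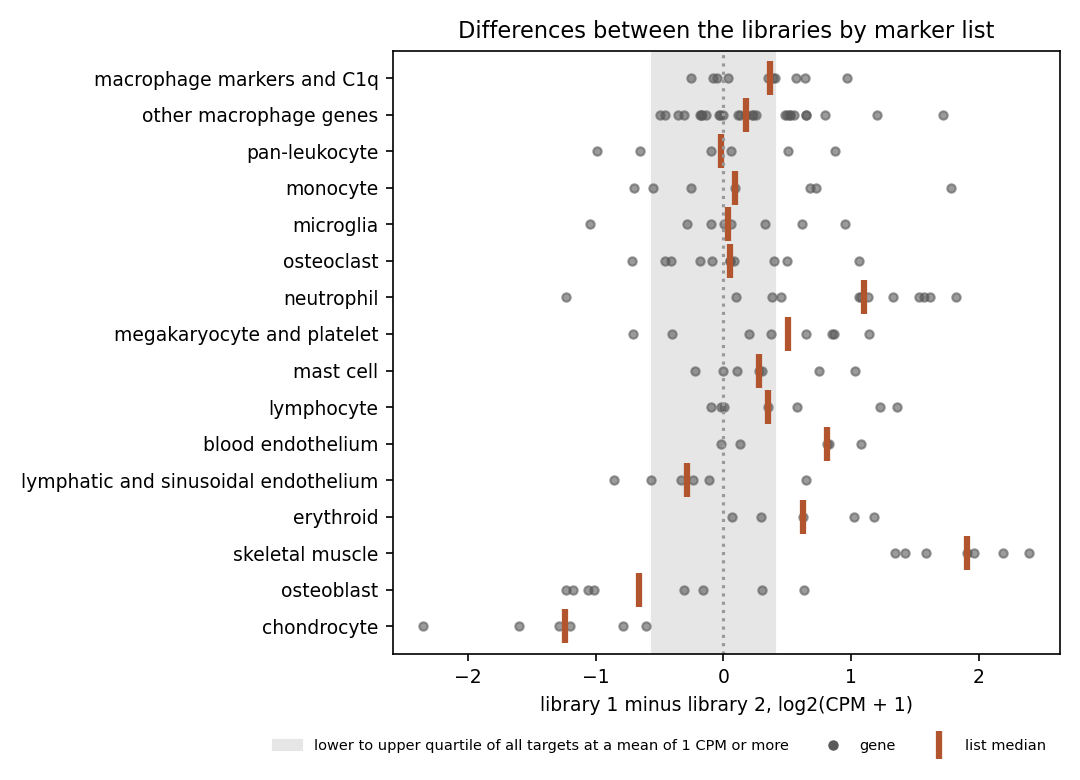
Difference between the libraries on the log2(CPM + 1) scale (library 1 minus library 2) for each gene (dots) of the macrophage and C1q set and of 15 marker lists, with list medians as bars and the range from the lower to the upper quartile of all targets at a mean of 1 CPM or more in grey. The median of the macrophage and C1q set is 0.37, beside 1.11 for neutrophil, 0.05 for osteoclast and 1.91 for skeletal muscle markers.

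The 27 other macrophage genes did not share 1 direction. Of these, 7 were called higher in library 1, 2 higher in library 2 and 18 neither, with a median difference of 0.18. Adgre1, the gene of the F4/80 antigen, was 3.93-fold higher in library 1 (interval 2.78 to 5.58, adjusted p = 1.20e-14, exact binomial test), at 14.7 and 3.73 CPM. Lyve1 and Folr2, which mark perivascular resident macrophages together with Mrc1 and Cd163, were 1.61-fold and 1.49-fold higher (adjusted p = 0.000136 and 0.0006 in the exact binomial test). Lyve1 is a lymphatic endothelial gene as well. Csf1r, at 68.0 and 93.8 CPM, was higher in library 2, and so was Stab1 at 154 and 173 CPM. Spi1 and Maf, transcription factors of the macrophage lineage, were not called. Timd4, Vsig4 and Marco, markers of resident macrophages in other organs, averaged under 1 CPM. So did Mpeg1, Msr1 and Cd5l of the same list, at means of 0.688, 0.297 and 0.909 CPM. The pan-leukocyte genes gave 1 call toward library 1 and 3 toward library 2, and Ptprc, the common leukocyte antigen, averaged 5.51 CPM.

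The growth factors of macrophages were measured with their receptors. Csf1, the ligand that macrophages and osteoclasts depend on, stood at 156 and 192 CPM and was called higher in library 2. Il34, the other ligand of Csf1r, averaged 8.59 CPM. Csf2 averaged 0.285 CPM, and its receptor chain Csf2ra 22.1 CPM.

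The complement genes that act after C1q gave between no reads and about as many as C1qb. The proteases that bind C1q are not analysed here. C2 stood at 5.65 and 9.30 CPM and C4b at 1.77 and 6.08 CPM, both called higher in library 2, though C4b has a near-identical copy in C4a and its value is uncertain. C3, the central component, stood at 32.3 and 26.3 CPM and was not called (adjusted p = 0.0610, exact binomial test). Of 11 genes of the classical and lectin pathways, 5 reached 1 CPM in both libraries and none reached 10 CPM in both.

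The recognition genes of the lectin pathway were led by the ficolins. Fcnb, a ficolin of neutrophils and monocytes, averaged 8.95 CPM and was 2.04-fold higher in library 1. Fcna, a ficolin of macrophages, stood at 10.9 and 3.54 CPM. Both were called higher in library 1, as was Colec11 at 3.71 and 0.823 CPM. The protease Masp1 averaged 4.98 CPM and was not called. Masp2, Mbl1, Mbl2, Colec10 and Colec12 averaged from 0.0315 to 0.701 CPM.

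The alternative pathway was represented by Cfp, properdin, at a mean of 21.6 CPM and Cfd, factor D, at 8.62 CPM, neither of them called. Genes of the membrane attack complex gave few reads. None of the 6 terminal genes reached 1 CPM in both libraries, none was called, and their sum was 1.59 CPM in library 1 against 0.444 CPM in library 2. C7 and C8a were read 0 times in both. Hc, which codes for C5, was also read 0 times in both, where 3 reads are worth 0.530 and 0.190 CPM.

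Regulators gave more reads. Of 11 genes 8 were detected and 6 reached 10 CPM in both libraries. Clu, clusterin, which binds the terminal complex, stood at 119 and 207 CPM and was called higher in library 2. Serping1, the inhibitor of C1r and C1s, stood at 68.3 and 36.5 CPM and was called higher in library 1. So were Vtn (mean 44.8 CPM), Cr1l (34.4 CPM) and Cd59a (29.8 CPM), which protect the surfaces of the body's own cells or bind the terminal complex. Cd59a has a copy in Cd59b, which averaged 0.398 CPM.

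Among receptors and proteins that bind C1q or C3 fragments, 9 of 11 were detected. Calr and Lrp1, which take part in the uptake of C1q-coated cells but are made by most cell types, averaged 792 and 641 CPM. C1qbp averaged 204 CPM, Cd93 52.0 CPM, Itgb2, the shared chain of complement receptors on leukocytes, 41.6 CPM, and Megf10, a phagocytic receptor, 19.7 CPM. The anaphylatoxin receptors C3ar1 and C5ar1 averaged 8.60 and 4.78 CPM and were not called. Over the list, 3 genes were called higher in library 1 and 4 higher in library 2.

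**Figure D4:**
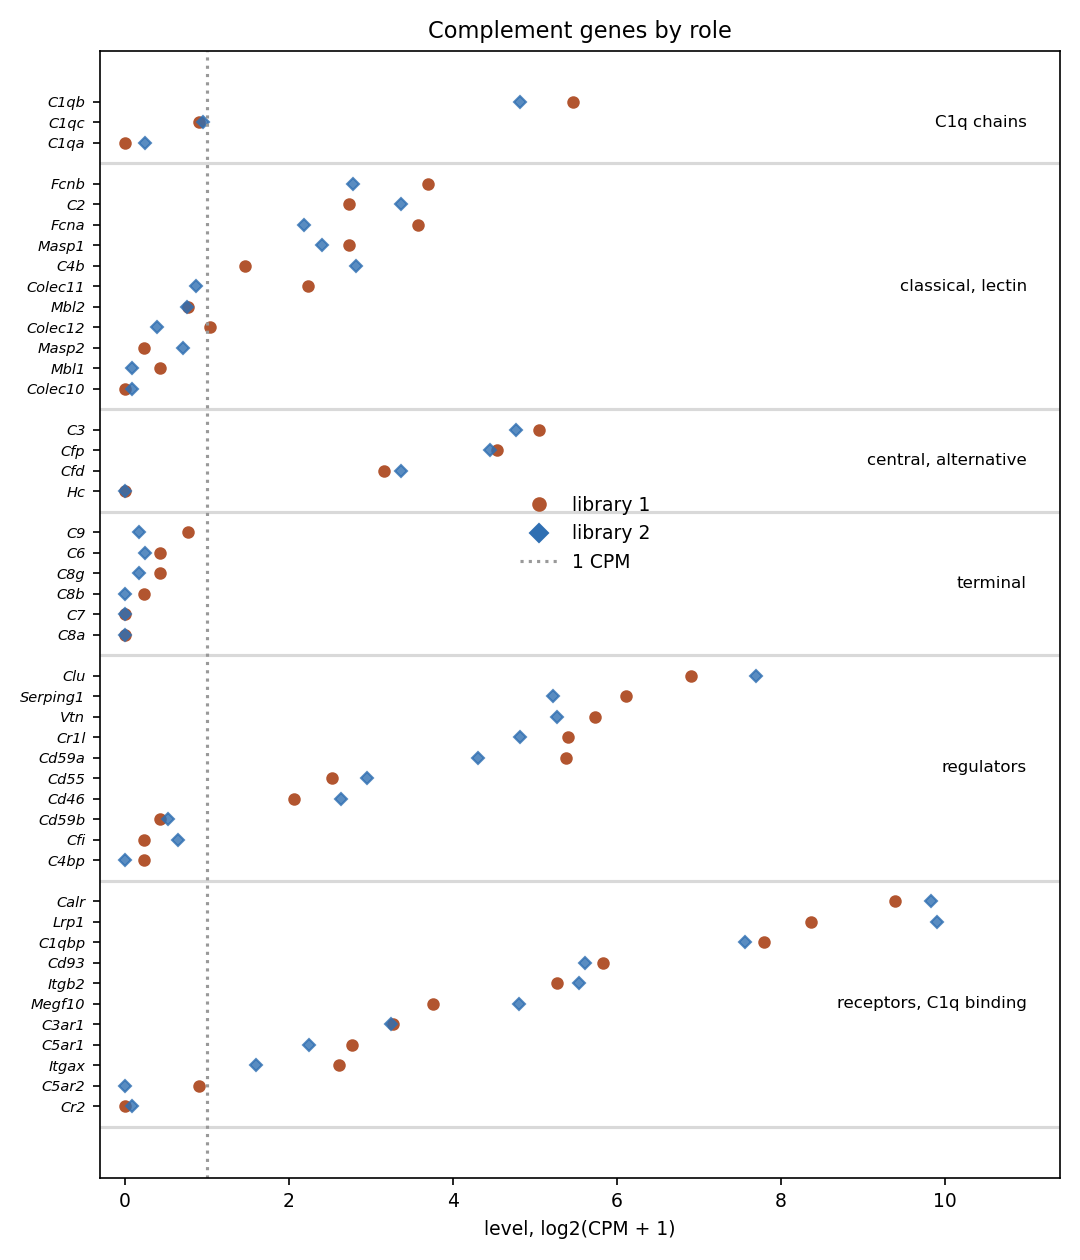
Levels of the C1q chains and of the complement genes reported by role on the log2(CPM + 1) scale, with a circle for library 1, a diamond for library 2 and 1 CPM as a dotted line. Regulators and C1q-binding proteins hold the highest values, C1qb exceeds every classical and lectin pathway gene shown, and all 6 terminal genes lie below 1 CPM.

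The partners of the other members were counted in the same way. Of the 10 genes of Trem2 and Fc receptor signalling, all were detected and 7 were called higher in library 1, with none called higher in library 2 and a median difference of 0.53. Fcer1g, the Fc receptor adaptor, averaged 69.0 CPM and Tyrobp 62.8 CPM. Apoe, a lipoprotein ligand of Trem2 made by macrophages and other cells, stood at 53.5 and 30.2 CPM. Inpp5d, the phosphatase SHIP, stood at 46.1 and 27.3 CPM, and Syk and Plcg2, the kinase and lipase of the pathway, averaged 24.9 and 18.1 CPM. Tyrobp was 1.45-fold higher in library 1 (interval 1.29 to 1.64), while Trem2 itself was not called.

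Genes of haem handling, the task served by Cd163, were led by Lrp1, also a receptor of haemopexin, Blvrb (93.3 CPM), Slc48a1 (89.5 CPM) and the haem oxygenase Hmox1 (63.1 CPM). Haptoglobin (Hp), the plasma protein whose complex Cd163 binds, averaged 23.8 CPM and the iron exporter Slc40a1 19.0 CPM. Of 8 measured genes 1 was called higher in library 1 and 2 higher in library 2. Mrc2, the collagen-binding relative of Mrc1 known from fibroblasts and bone cells, stood at 277 and 460 CPM. It was called higher in library 2, the opposite of Mrc1, and the number of Mrc1 reads per Mrc2 read was 2.22-fold higher in library 1 (interval 1.84 to 2.68). In its list of scavenger receptors, Scarb1, Cd36 and Scarb2 averaged 136, 33.5 and 23.5 CPM, with 2 genes of 9 called higher in library 1 and 3 higher in library 2.

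All 11 lysosome genes set beside Cd68 reached 10 CPM in both libraries, led by Ctsd at 1399 CPM, Cd63 at 1333 CPM and Ctsb at 690 CPM. Of these, 7 were called higher in library 1 and 2 higher in library 2, with a median difference of 0.33. Lamp1 stood at 393 and 237 CPM and Npc2 at 291 and 214 CPM, while Ctsl and Lamp2 were not called. Such genes are active in most cell types. For factor XIII, the carrier chain F13b was read at 0.177 and 0.190 CPM, far below F13a1, and the fibrinogen chains Fga, Fgb and Fgg, made by liver, averaged 0.738, 0.353 and 0.442 CPM. Tgm2, the tissue transglutaminase, stood at 113 and 89.3 CPM. Of this list of 7 genes, 4 were called higher in library 1 and none higher in library 2.

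Markers of tissues outside the myeloid lineage also differed between the libraries. All 7 measured skeletal muscle markers were called higher in library 1, with a median difference of 1.91. Blood endothelial markers gave 3 of 5 calls toward library 1 (median difference 0.81) and erythroid markers 4 of 5 (0.63). All 4 hepatocyte markers were called higher in library 1, led by Ttr at 62.7 and 4.62 CPM. Apoa2 and Alb, the next highest, averaged 3.31 and 3.07 CPM, so Ttr held most of the reads of this list. Whether hepatocytes gave these reads was not tested. All 6 chondrocyte markers were called higher in library 2 (median difference -1.24), as were 6 of 8 osteoblast markers (-0.66). Mast cell and lymphocyte markers each gave 2 calls toward library 1 and none toward library 2, and dendritic cell markers 3 and none. The part of tissue make-up in the differences of the macrophage markers was not tested.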

How the data were processed

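The authors deposited CPM values, reads of a target scaled to the reads of its library, with 1 column for each of 2 libraries and 23930 amplicon targets. Per the labels' protocols, the libraries were built from total RNA with the Ion AmpliSeq mouse transcriptome panel, and the submitters' processing notes name mm10. Aligner and counter: not given in the sources used here. All values above 0 were whole multiples of 1 step per library (0.177 and 0.0633 CPM) with a tolerance of 0.01 read (100% in both libraries), which gave the reads behind them. The authors' CPM were used for levels and the reads for an exact binomial test (SciPy 1.17.1), with Benjamini-Hochberg adjustment over all targets. Differences are on the log2(CPM + 1) scale, which understates the change of low genes. A count test with dispersion cannot be fitted with 1 library on each side. Library factors for alternatives came from edgeR 4.0.16 (TMM) and DESeq2 1.42.0 (median of ratios). Intervals are exact at 95%. The binomial test and the intervals were tested on simulated data that held counting error only. Such data cannot show how the calls behave where libraries also vary in other ways. Positions and transcripts came from GENCODE M21 and promoters from RefSeq (GRCm38.p6). The members and 28 gene lists (237 genes, 226 measured) were chosen with earlier results of these data known. Named genes were all members, every pathway gene at a mean of 10 CPM or more or otherwise the 3 highest, every classical and central complement gene, and the 3 highest of each cell type list. Some genes that this rule takes are given in counts only, and others (Adgre1, C3ar1, C5ar1, C7, C8a, Ccr2, Cd59b, Cd5l, Csf2, Ctsk, F13b, Fgb, Fgg, Folr2, Fth1, Il34, Lyve1, Maf, Marco, Mpeg1, Mpo, Msr1, P2ry12, Ptprc, Sall1, Siglech, Spi1, Timd4 and Vsig4) were named after their values were seen. Some genes are counted in their lists but not reported here by name. With 2 libraries no likeness of patterns to other genes was measured.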

Additional observations from a re-analysis of the deposited data

How the results depend on the processing

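The count of 4 members higher in library 1 was kept with TMM factors, median-of-ratios factors and a total without muscle genes and the 10 highest targets, and became 5 where only targets at a mean of 1 CPM or more entered the adjustment. Where a difference of at least 1 on the log2 scale was also asked for, the exact binomial test called 0 members in either direction. The count was also 0 at an unadjusted p under 0.05, since Lyz2 stood at 0.97. Lyz2 lay close to this limit, at 0.999 with TMM factors and 1.01 with median-of-ratios factors. The limit was not applied with those factors. In 56 of 57 further values for the difference of single members, the direction of called members and the call were as reported. The exception was Cd163, given above. Some of the 57 only changed the value added before the log, to 0.1 or 5 CPM. Such a change repeats no test and cannot turn a direction, so these values could not have differed. The alternative library factors and total moved the median of all targets at a mean of 1 CPM or more by at most 0.03. The median level of the members was 20.8 CPM, from 17.8 to 23.7 CPM with either library alone, and 7 members reached 1 CPM in each. At 10 CPM 6 members were detected, and 8 had more than 3 reads in both libraries. C1qb against the sum of the other chains differed 2.03-fold between the libraries (interval 0.715 to 7.09). No paired analysis was possible because the series holds 1 group. Leaving out a library leaves no comparison. Depth limits C1qa, C1qc, Lyz1 and Trem2 most, with 57 reads or fewer in each library.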

Other observations

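Gene families related to the members were gathered by symbol after the values had been seen, so they are described without a test of the family. Secreted relatives of C1q were well expressed in the suture. Of 7 C1qtnf genes measured, 5 reached 1 CPM in both libraries, with C1qtnf3 at 110 and 67.1 CPM, C1qtnf1 at 70.8 and 92.8 CPM and C1qtnf6 at 37.4 and 69.0 CPM. In the exact binomial test over all targets C1qtnf3 was called higher in library 1 and the other 2 higher in library 2. Of 3 C1ql genes, known from the nervous system, 1 reached 1 CPM in both libraries (C1ql1, mean 2.35 CPM).

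Among 18 Ms4a genes, many of them membrane proteins of myeloid and B cells, 6 were detected, and 5 were called higher in library 1 with none higher in library 2. Ms4a6c stood at 10.4 and 5.13 CPM and Ms4a4a at 11.1 and 2.34 CPM. Of 8 Cd300 genes, 4 were called higher in library 1, led by Cd300lg, an endothelial member, at 50.9 and 31.7 CPM. Siglec15, a receptor of osteoclasts, moved the other way, at 9.89 and 28.4 CPM. The Trem relatives of Trem2 averaged from 1.93 (Trem1) to 3.34 CPM, with Trem3 the highest at 5.47 and 1.20 CPM. Of the lysozyme-like genes 1 of 6 was detected, Lyzl4 at a mean of 1.16 CPM.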
